A study of Mus musculus with 8 samples.

Results

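The 9 genes described here carry out antigen presentation by major histocompatibility complex (MHC) class II molecules in mouse thymic epithelial cells (TEC). They were chosen by symbol, from 27514 genes that the count matrices of all 8 libraries share, and the rule itself uses no measured value. H2-Aa, H2-Ab1 and H2-Eb1 encode the classical peptide-binding chains, Cd74 the invariant chain, Ciita the class II transactivator, H2-DMa and H2-DMb1 the peptide exchange factor H2-DM, and H2-Oa and H2-Ob its inhibitor H2-DO. All 9 are listed in every library, and all 9 passed the filter on low counts in both fits.

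The study captured TEC by droplet single-cell RNA sequencing to compare their transcription through development and between the lineages of the thymus. All mice were wild type (WT) of strain C57 B6 (CD45.2), with no transgene and no treatment, and live EpCAM+ CD45- cells were sorted in every case. The cortical line held 1 library each of total TEC from E13.5 embryos (E for embryonic day), of cortical TEC (cTEC, gated as Ly51+ UEA-1-) from E15.5 and E17.5 embryos, and of newborn (NB) cTEC, from mice of 0 to 2 days. Adult mice of 4 to 6 weeks gave 2 libraries of cTEC and 2 of medullary TEC (mTEC, gated as Ly51- UEA-1+). Newborn and adult mice were of either sex. Data set 1 held E13.5, E15.5, NB and replicate 1 of both adult groups, and data set 2 held E17.5 and replicate 2 of both adult groups. The libraries below the adult have no replicate. Embryonic thymi were dissociated with trypsin and later ones with Liberase and a Percoll gradient, so in the step from embryonic to newborn and adult stages age and preparation cannot be told apart, while the steps within either set share a preparation. E13.5 differs from the later stages in its sort gate as well, so the step from E13.5 to E15.5 holds both age and gate.

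Class II molecules display peptides from endosomes to CD4+ T cells. In the endoplasmic reticulum the alpha and beta chains assemble with the invariant chain, which blocks the groove and directs the complex to endosomes, where proteases trim the invariant chain to a short remnant. H2-DM removes the remnant and edits the peptide cargo, and H2-DO restrains H2-DM. Transcription of these genes depends on Ciita, which has no DNA-binding activity of its own and is recruited by a protein assembly on a shared promoter module, the X and Y boxes. In the thymus, class II on cTEC selects CD4+ thymocytes positively, and class II on mTEC and dendritic cells serves to delete or divert self-reactive ones. C57BL/6 mice lack a working H2-Ea gene, so H2-Eb1 transcripts in this strain do not lead to H2-E at the cell surface.

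In the GENCODE annotation of build GRCm38, 7 of the 9 genes lie within 224 kb of chromosome 17, in the order H2-Oa, H2-DMa, H2-DMb1, H2-Ob, H2-Ab1, H2-Aa and H2-Eb1. H2-Oa starts this stretch at chr17:34092340-34095234 and H2-Eb1 ends it at chr17:34305867-34316674, both on the plus strand, and H2-Aa at chr17:34282744-34287823 is the member on the minus strand. Ciita lies apart, at chr16:10480059-10528418 on the plus strand. The RefSeq promoter table of build GRCm38.p6, which gives 250 bases before and 50 after each start, held 7 entries for 6 members. The stretch of the module by which Ciita acts is shown for the 5 members in which a search found it. GNAAC (from the X box) and GATTGG (the Y box) are in capitals, with 12 flanking bases on each side, 5′ to 3′ on the strand of the gene.
H2-Oa: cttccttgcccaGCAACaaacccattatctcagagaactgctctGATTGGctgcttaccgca
H2-DMb1: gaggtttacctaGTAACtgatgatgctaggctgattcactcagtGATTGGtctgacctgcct
H2-Ob: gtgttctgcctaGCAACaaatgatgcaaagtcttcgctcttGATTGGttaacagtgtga
H2-Aa: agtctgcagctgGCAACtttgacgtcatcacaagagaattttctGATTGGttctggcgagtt
H2-Eb1: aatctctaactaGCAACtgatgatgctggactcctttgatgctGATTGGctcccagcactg

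These stretches lie at chr17:34092291-34092352 (H2-Oa), chr17:34153085-34153146 (H2-DMb1), chr17:34238806-34238864 (H2-Ob), chr17:34287855-34287916 on the minus strand (H2-Aa) and chr17:34305764-34305824 (H2-Eb1). The Y box began from 44 bases (H2-Oa) to 62 bases (H2-DMb1) before the RefSeq start, which can differ from the GENCODE start, and the H2-DMb1 stretch lies inside the gene as GENCODE gives it (chr17:34153072-34160230). GNAAC preceded it by 32 bases in H2-Oa, H2-DMb1 and H2-Aa, by 31 in H2-Eb1 and by 29 in H2-Ob, counted from first base to first base. Searched on both strands, GATTGG alone occurred in 5292 of 32851 promoters of this length (16.1%), and the pair at a spacing of 29 to 32 bases in 77 (0.234%). The letters and spacings of the pair were chosen after these promoters had been read, so its presence in the members is a description. Neither of the 2 entries of H2-DMa held the pair in this window.

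Of 28334 deposited cells, 25750 were within the study's limits on mitochondrial transcripts and genes per cell, with medians of 3996 to 11386 unique molecular identifiers (UMIs, 1 per captured transcript) per cell and library totals from 2257967 UMIs in adult cTEC 1 to 90103548 in E17.5. A pair of libraries shared 0 to 84 cell barcodes. Thymocyte-like, parathyroid-like and thyroid-like clusters were left out, and the other cells, called epithelial-like, numbered 1752 (E13.5), 3560 (E15.5), 8350 (E17.5), 3435 (NB), 493 and 535 (adult cTEC), and 1585 and 5615 (adult mTEC). Levels are given in CPM, the UMIs of a gene in these cells summed by library and scaled to a common library total. Between genes they are set side by side as ratios followed across libraries, since transcripts were counted at the 3′ end. Psmb11, the cortical proteasome subunit, was at 251 CPM in E13.5 TEC, from 1340 to 1470 CPM in E15.5, E17.5 and NB cTEC, at 667 and 1390 CPM in adult cTEC, and 3.85 and 8.57 CPM in adult mTEC. Aire, the medullary transcription factor, was at 435 and 399 CPM in adult mTEC and at 9.27 and 2.72 CPM in adult cTEC. The medullary chemokine Ccl21a was nevertheless at 5400 and 873 CPM in the adult cTEC gate, against 6440 and 2890 CPM in mTEC, and a cluster of 102 cells led by C1qa and C1qb, transcripts of macrophages, was kept in adult cTEC 1. No cluster of data set 2 was left out, and 18 cells of adult cTEC 2 led by Tcf7, Rhoh and Cd3g, with Ptprc at 69.5 CPM, were kept.

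Transcripts of the classical chains made up a growing part of the RNA of the cortical line up to birth. H2-Aa, H2-Ab1 and H2-Eb1 together took 0.0842% of the UMIs of E13.5 TEC, 0.438% of those of E15.5 cTEC, 0.729% (E17.5), 1.26% (NB), and 1.22% and 1.11% (adult cTEC). In adult mTEC they took 1.89% and 1.84%. With Cd74 added, the 4 genes held 0.135% of all UMIs at E13.5 and 2.15% in NB, 2.52% and 2.44% in adult cTEC, and 3.99% and 3.57% in adult mTEC.

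**Figure D1:**
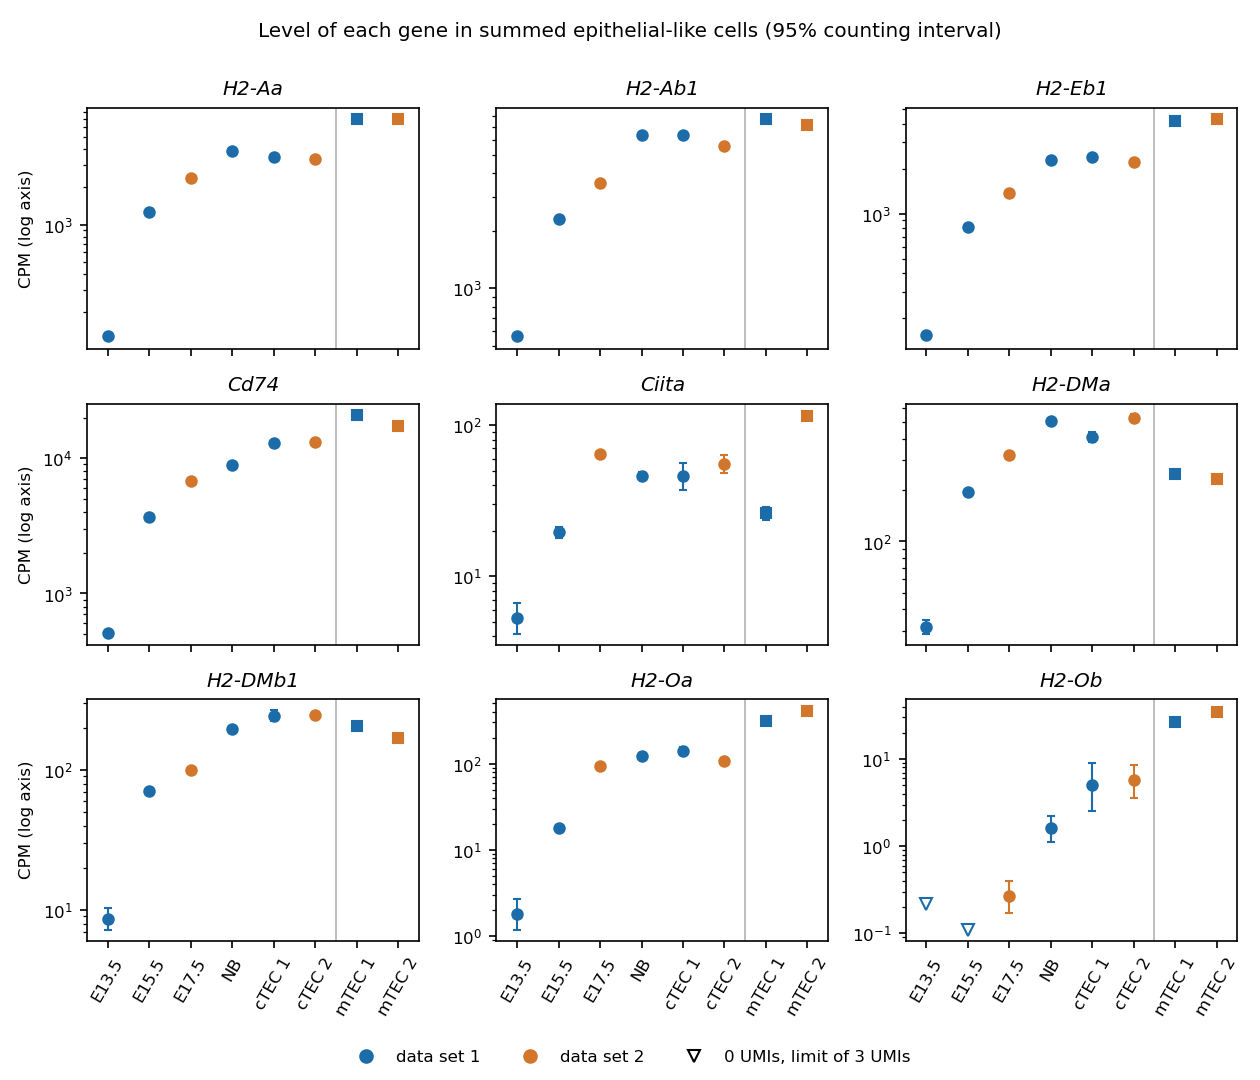
Level of each of the 9 genes (CPM, log axis) in the summed epithelial-like cells of each library, with circles for the cortical line, squares for adult mTEC, and bars for the exact 95% Poisson interval, which covers counting error only. H2-Aa went from 128.7 CPM at E13.5 to 3907 CPM in NB cTEC, H2-Ob was at 0 UMIs in both early stages (triangles, limit of 3 UMIs), and H2-DMa and H2-DMb1 were lower in both adult mTEC libraries than in both adult cTEC libraries.

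H2-Ab1, the beta chain of H2-A, was at 559.9 CPM in the E13.5 library, from 7732 UMIs, and then at 2301 CPM (E15.5), 3566 CPM (E17.5), 6393 CPM (NB), and 6325 and 5587 CPM (adult cTEC). Its partner H2-Aa, the alpha chain, was at 128.7, 1261, 2350 and 3907 CPM at these 4 stages and at 3484 and 3325 CPM in adult cTEC. H2-Eb1, the beta chain of H2-E, was at 153.2, 818.2, 1372 and 2299 CPM and then at 2410 and 2223 CPM. The 3 classical chains thus ran in the same order of libraries up to birth, and the adult cTEC libraries lay close to NB, at 0.892 times (H2-Aa), 0.989 times (H2-Ab1) and 1.05 times (H2-Eb1) its level within data set 1. Cd74, the invariant chain, was at 512, 3674, 6789 and 8899 CPM at these stages, and at 13010 and 13270 CPM in adult cTEC. Adult cTEC 1 was thus 1.46 times NB for Cd74. Between E17.5 and adult cTEC 2 of data set 2 the folds were 1.41 (H2-Aa), 1.57 (H2-Ab1), 1.62 (H2-Eb1) and 1.95 (Cd74).

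As a fold, the difference between E13.5 and E15.5 was larger than that between E15.5 and NB for the classical chains and Cd74. The level at E15.5 was 9.80 times that at E13.5 for H2-Aa, 4.11 times for H2-Ab1, 5.34 times for H2-Eb1 and 7.18 times for Cd74, and NB over E15.5 gave 3.10, 2.78, 2.81 and 2.42. Over all members, 7 of 9 were at least 4-fold higher at E15.5 than at E13.5, as were 4.27% of the 14288 genes tested, and 8 of 9 were higher in CPM at each step from E13.5 over E15.5 to NB, as were 24.4% of all genes. The lowest level of the 6 cortical libraries was at E13.5 for 8 of 9, against 19.8% of all genes, and the ninth, H2-Ob, was at 0 UMIs at both E13.5 and E15.5. These are counts over libraries without replicates.

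Ciita, the transactivator, had UMIs from the first stage. It was at 5.286 CPM in E13.5 TEC (73 UMIs, 95% interval 4.143 to 6.646), 19.55 CPM (E15.5), 64.52 CPM (E17.5, 62.87 to 66.20), 45.77 CPM (NB), and 45.87 and 55.20 CPM (adult cTEC). E17.5, the library of data set 2, thus had the highest value of the cortical line, though its counting interval met that of adult cTEC 2 in its own data set (48.19 to 62.94). Ciita had 0 UMIs in the parathyroid-like and thyroid-like cells of E13.5, which with 124 and 105 cells allows shares of up to 2.42% and 2.86%, where 4.05% of the epithelial-like cells had a UMI before thinning and 0.915% after each cell was thinned to 2000 UMIs, a share under these limits. It was at 10.5% of its adult cTEC mean at E13.5. H2-Ab1 was at 9.40%, and the other members were at 0% to 6.71%.

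H2-DMa and H2-DMb1, the chains of the exchange factor, had different gaps between birth and the adult. H2-DMa was at 31.57 CPM (E13.5), 195 CPM (E15.5), 321.5 CPM (E17.5), 508 CPM (NB), and 410.5 and 530.4 CPM (adult cTEC), so that NB lay between the adult libraries. H2-DMb1 was at 8.689, 71.03, 100.8 and 197.7 CPM and then at 244.6 and 245.5 CPM, so that NB lay below both. H2-DMb1 has a near-identical neighbour, H2-DMb2, and reads shared between them may be split or lost in counting, which leaves both levels uncertain. H2-DMb2 was at 5.575 CPM at E13.5, 25.12, 115.9 and 199.3 CPM at the next 3 stages, and 296.5 and 294.8 CPM in adult cTEC.

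H2-Oa and H2-Ob, the chains of the H2-DM inhibitor, were at E15.5 the members farthest below their adult level. H2-Oa was at 1.81 CPM in E13.5 TEC (25 UMIs, interval 1.171 to 2.672), 17.99 CPM (E15.5), 93.32 CPM (E17.5), 121.4 CPM (NB), and 139.9 and 106.9 CPM (adult cTEC). The E13.5 level was not above that of the parathyroid-like and thyroid-like cells of the same library, at 5.143 and 2.996 CPM (3 and 2 UMIs). H2-Oa was thus at 14.6% of its adult cTEC level at E15.5 and at 75.6% at E17.5, a step that also crosses from data set 1 to data set 2. H2-Ob had 0 UMIs at E13.5, which allows up to 0.2172 CPM, and 0 UMIs at E15.5, which allows up to 0.1092 CPM. It was at 0.2667 CPM at E17.5 (24 UMIs), 1.599 CPM in NB (37 UMIs, interval 1.126 to 2.204), and 5.096 and 5.693 CPM in adult cTEC (11 and 23 UMIs). Against the limit of 3 UMIs at E15.5, H2-Ob was at least 14.6-fold higher in NB and at least 46.7-fold and 52.1-fold higher in the adult cTEC libraries. The adult values are of the whole gate. Within it H2-Ob was highest in the clusters with Ccl21a at 20400 and 16300 CPM (13.1 and 66.6 CPM). The cTEC-like clusters were at 1.61 CPM in adult cTEC 1 and at 2.23 and 0.0 CPM in adult cTEC 2. With 11 and 23 UMIs in the whole libraries, these cluster values rest on few UMIs. Adult cTEC cells with a UMI of Psmb11 or of the cortical protease Prss16 held H2-Ob at 4.349 and 4.906 CPM (7 and 17 UMIs), against 1.599 CPM in NB.

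The slope on stage over the 6 cortical libraries, with data set as a term, was positive for 9 of 9 members, with a median of 0.84 log2 units per stage against 0.0 over all genes tested. H2-Ob rose, with a slope of 2.45 ± 0.362 (SE, n = 6 libraries, edgeR quasi-likelihood test, adjusted p = 0.0166). With its zeros set to the limit of 3 UMIs its slope was 1.45, and without adult cTEC 1 the fitted slope was 2.59 with an adjusted p of 0.129. H2-Ob was the 1 member of 9 called, and of all 14288 genes 8.22% were called, 5.15% higher and 3.07% lower at later stages. The other 8 members had slopes from 0.56 ± 0.211 (Ciita, adjusted p = 0.149) to 1.19 ± 0.349 (H2-Oa, adjusted p = 0.0877), with an unadjusted p under 0.05 for each of the 8. The slopes of H2-DMb1 and Cd74 were 0.93 ± 0.229 (adjusted p = 0.0582) and 0.87 ± 0.22 (adjusted p = 0.0613). DESeq2 called 9 of 9 as higher at later stages, where it called 17.6% of the genes it tested, 10.0% as higher and 7.62% as lower. In the edgeR fit without the E13.5 library, 3 members were called, H2-Ob, H2-DMb1 (0.60, adjusted p = 0.0294) and Cd74 (0.54, adjusted p = 0.047), where 8.14% of the 14546 genes tested were called, 6.07% higher and 2.07% lower at later stages.

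The order in which the genes appeared was read as the first stage at or above 10% of the mean adult cTEC level. This was E15.5 for 7 members, E13.5 for Ciita and NB for H2-Ob. At E15.5, H2-DMa was at 41.4% of its adult cTEC level, Ciita at 38.7%, H2-Ab1 at 38.6%, H2-Aa at 37.0%, H2-Eb1 at 35.3%, H2-DMb1 at 29%, Cd74 at 28.0% and H2-Oa at 14.6%. In NB cTEC, 4 members were at 98.4% to 108% of the adult level (H2-Ab1, H2-Eb1, H2-DMa and H2-Oa), H2-Aa was at 115%, Ciita at 90.6%, H2-DMb1 at 80.7%, Cd74 at 67.7% and H2-Ob at 29.6%. The H2-Ob share is set by the whole adult gate, in which H2-Ob rested on 11 and 23 UMIs and was uneven between clusters. At a limit of 5%, H2-Ab1, H2-Eb1, Ciita and H2-DMa reached it at E13.5, and at 25% Ciita moved to E15.5 and H2-Oa to E17.5.

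To compare single cells at equal depth, each was thinned at random to 2000 UMIs, and shallower cells (0 to 123 per library) were left out, among them 65 of the 493 cells of adult cTEC 1. Parathyroid-like cells of the E13.5 library, which have no known role in class II presentation, served as the measure of free RNA. At E13.5, 57.8% of epithelial-like cells (95% interval 55.5 to 60.2) held a UMI of H2-Aa, H2-Ab1 or H2-Eb1, against 11.3% of 124 parathyroid-like cells (6.31 to 18.2) and 4.76% of 105 thyroid-like cells. The E13.5 share thus lay above this background. The share was 96.8% (E15.5), 99.9% (E17.5), 99.97% (NB), 99.3% and 99.0% (adult cTEC), and 100% of 1585 and 5492 cells in adult mTEC. The later shares have no such background, since the 169 thymocyte-like cells left out of NB held a classical UMI in 97.63% of cells, with H2-Aa at 3891 CPM against 3907 CPM in epithelial-like cells. These cells may include cTEC that enclose thymocytes, as the authors propose for a cluster with T cell transcripts. Without thinning, the share at E13.5 was 85.5%, against 19.4% of parathyroid-like and 23.8% of thyroid-like cells.

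Among the members, H2-Ab1 was found in 53.5% of thinned E13.5 cells and Cd74 in 35.6%, where H2-Eb1 was found in 16.5% and H2-Aa in 14.5%. The parathyroid-like background was 8.87% for H2-Ab1 and 0.81% to 1.61% for the other 3. At E15.5 the shares were 94.4% (H2-Ab1), 95.2% (Cd74), 79.0% (H2-Aa) and 71.6% (H2-Eb1), and in NB they ran from 97.9% to 99.97%. The other members were found in fewer cells. H2-DMa was in 6.41% (E13.5), 32.5% (E15.5), 62.4% (NB), and 53.7% and 65.7% (adult cTEC) of cells. H2-DMb1 was in 1.49%, 14.3%, 32.7%, 39.5% and 40.0% of the same libraries' cells, and Ciita in 0.915%, 3.87%, 8.38%, 7.94% and 10.7%. The H2-DMb1 share at E13.5 was no higher than that in thyroid-like cells, at 1.91% of 105 cells, with 0 of 124 parathyroid-like cells. H2-Oa was found in 0.229% of E13.5 cells (95% interval 0.0624 to 0.585), in 0 of 124 parathyroid-like cells (which allows up to 2.42%) and in 1 of 105 thyroid-like cells, so that its E13.5 share could not be told from the background at this depth. H2-Oa was then in 3.41% (E15.5), 15.53% (E17.5), 19.7% (NB), and 18.5% and 17.2% (adult cTEC) of cells. H2-Ob was found in 0 of 1748 thinned E13.5 cells and 0 of 3545 of E15.5, which allows up to 0.172% and 0.0846% of cells with a UMI at this depth, not of cells that express the gene, in 0.408% of NB cells, and in 0.935% and 1.15% of adult cTEC.

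**Figure D2:**
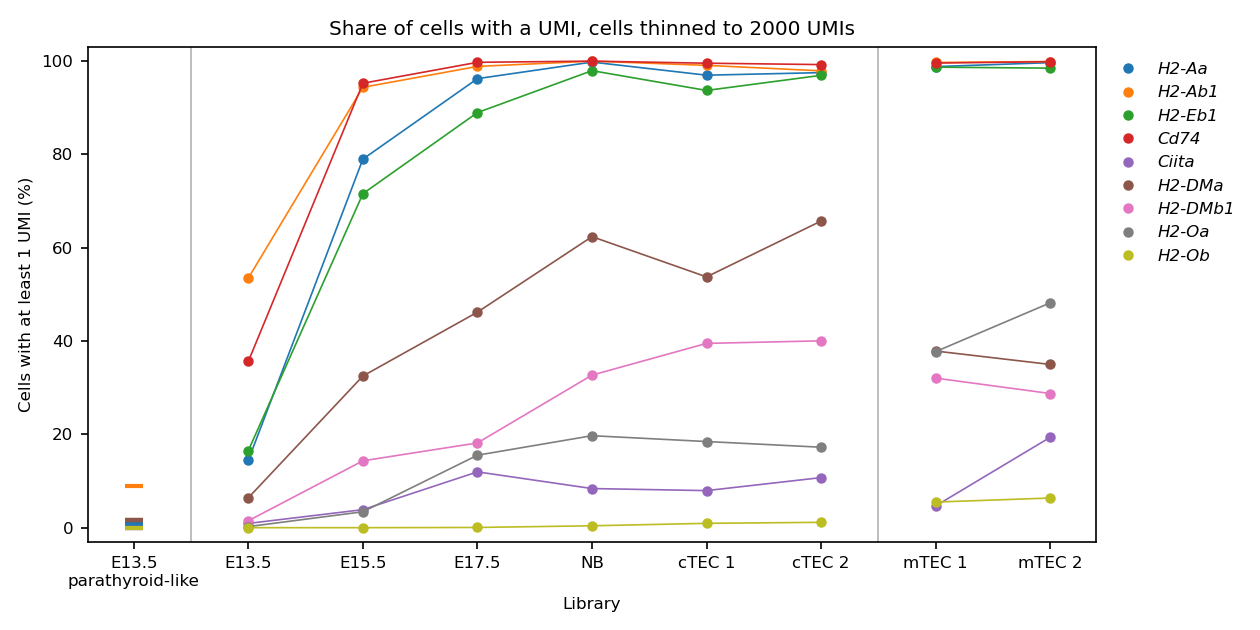
Share of epithelial-like cells with at least 1 UMI of each gene (percent) after thinning every cell to 2000 UMIs, by library, with the parathyroid-like cells of E13.5 as short bars at the left; lines join libraries to guide the eye. H2-Ab1 and Cd74 were in 94.4% and 95.2% of E15.5 cells, and H2-Oa was in 18.5% and 17.2% of adult cTEC and in 37.7% and 48.2% of adult mTEC.

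The median cell held 1 UMI of the 3 chains per 2000 UMIs in the E13.5 library, 8 (E15.5), 14 (E17.5), 24 (NB), 23 and 22 (adult cTEC), and 31 and 32 (adult mTEC). The 10th and 90th percentiles were 0 and 4 at E13.5, 2 and 17 at E15.5, 15 and 36 in NB, and 16 and 61 or 62 in adult mTEC. The upward shift up to birth thus moved the low end of the cells as well as the high end. The variance over the mean of these counts was 3.92 (E13.5), 3.67 (E15.5), 3.23 (E17.5), 2.79 (NB), 6.17 and 4.82 (adult cTEC), and 12 and 10.5 (adult mTEC). Cells without any classical UMI were 42.2% at E13.5 and 3.16% at E15.5.

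**Figure D3:**
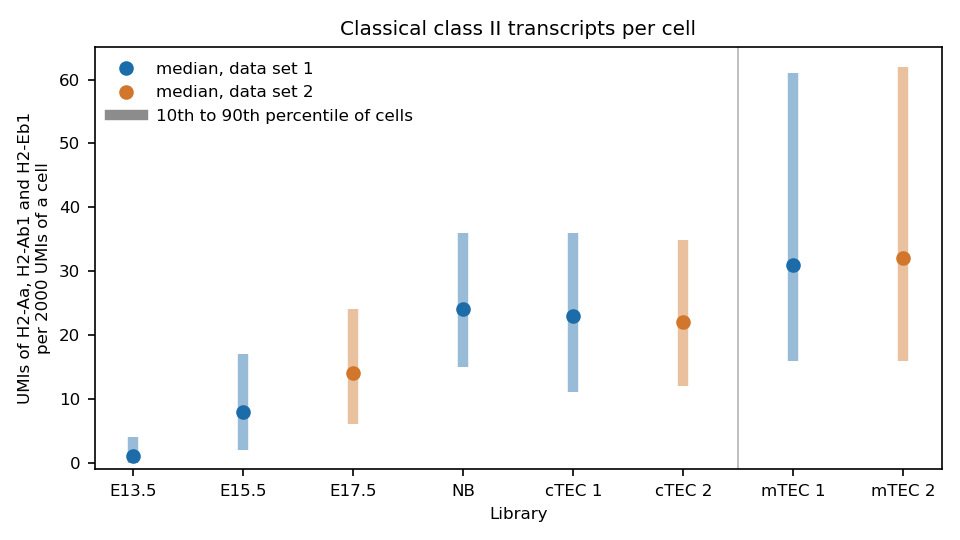
UMIs of H2-Aa, H2-Ab1 and H2-Eb1 together per 2000 UMIs of a cell, by library, with the median (point) and the 10th to 90th percentile of cells (bar). The median went from 1 at E13.5 to 24 in NB cTEC and stood at 31 and 32 in adult mTEC, where the bar reaches 61 and 62.

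The members did not keep fixed proportions to each other. The ratio of H2-Aa to H2-Ab1 CPM was 0.230 at E13.5, 0.548 to 0.659 in the 5 later cortical libraries, and 0.912 and 0.974 in adult mTEC. The ratio of Cd74 to H2-Ab1 was 0.915 (E13.5), 1.60 (E15.5), 1.90 (E17.5), 1.39 (NB), 2.06 and 2.37 (adult cTEC), and 2.73 and 2.42 (adult mTEC). Relative to H2-Aa and Cd74, H2-Ab1 was thus higher at E13.5 than in any later library. The ratio of H2-Oa to H2-DMa, inhibitor to exchange factor, was 0.0573 (E13.5, where H2-Oa was not above the left-out cells), 0.0922 (E15.5), 0.290 (E17.5), 0.239 (NB), 0.341 and 0.202 (adult cTEC), and 1.26 and 1.77 (adult mTEC). The mTEC values did not overlap those of any cortical library. H2-DMa to H2-Ab1 went the other way between the adult lineages, at 0.0649 and 0.0949 in cTEC and 0.0320 and 0.0324 in mTEC.

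Adult cTEC and adult mTEC, compared over 2 libraries each with data set as a term, differed most in the H2-DO genes. H2-Ob was at 5.394 ± 0.422 CPM (SD, n = 2) in cTEC and at 30.66 ± 5.76 CPM in mTEC, from 26.59 and 34.73 CPM. It was lower in cTEC by the edgeR test, with a log2 difference of −2.57 ± 0.464 (SE, adjusted p = 6.09e-06). H2-Oa was at 139.9 and 106.9 CPM in cTEC and at 310.1 and 409.5 CPM in mTEC, with a log2 difference of −1.61 ± 0.398 (adjusted p = 0.000849). In fits without 1 library and with no term for the data set, the call of H2-Oa was lost without adult cTEC 2 (−1.55, adjusted p = 0.0584) and without adult mTEC 2 (−1.40, adjusted p = 0.132). These were the 2 of 9 members called, both lower in cTEC, and of the 15627 genes tested 32.4% were called, 11.2% higher and 21.2% lower in cTEC. DESeq2 called 4 members lower in cTEC, H2-Aa and H2-Eb1 in addition, where it called 17.3% of the genes it tested, 6.08% higher and 11.2% lower in cTEC.

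H2-Aa was at 3484 and 3325 CPM in cTEC and at 7030 and 6968 CPM in mTEC. H2-Eb1 was at 2410 and 2223 CPM against 4177 and 4308 CPM. In both genes the groups did not overlap, with ratios of cTEC to mTEC of 0.496 and 0.477 for H2-Aa and 0.577 and 0.516 for H2-Eb1 in data sets 1 and 2, and neither passed the edgeR threshold (H2-Aa −1.11 ± 0.455, adjusted p = 0.0523, and H2-Eb1 −0.94 ± 0.441, adjusted p = 0.0935). By DESeq2 the log2 difference of H2-Aa was −1.15 (adjusted p = 0.0011) and that of H2-Eb1 was −0.98 (adjusted p = 0.00706). H2-Ab1 was at 5956 ± 522 CPM (SD, n = 2) in cTEC and 7432 ± 390 CPM in mTEC, a log2 difference of −0.39 ± 0.457 (adjusted p = 0.567). Cd74 was at 13140 ± 184 CPM in cTEC and at 21010 and 17300 CPM in mTEC, a log2 difference of −0.61 ± 0.487 (adjusted p = 0.371).

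The H2-DM genes had the opposite sign. H2-DMa was at 410.5 and 530.4 CPM in cTEC and at 246.6 and 231.9 CPM in mTEC, with cTEC over mTEC at 1.66 and 2.29 in data sets 1 and 2 and a log2 difference of 0.90 ± 0.395 (adjusted p = 0.0733). It passed the threshold without adult cTEC 1 (1.16, adjusted p = 0.0426). H2-DMb1 was at 245.1 ± 0.636 CPM in cTEC and 188.7 ± 26.2 CPM in mTEC, a log2 difference of 0.32 ± 0.382 (adjusted p = 0.583). H2-DMb2, its neighbour, was lower in cTEC, at 296.5 and 294.8 CPM against 864.8 and 763.7 CPM (−1.53 ± 0.408, adjusted p = 0.00209). Ciita was at 45.87 and 55.20 CPM in cTEC and at 25.99 and 114.7 CPM in mTEC, so that cTEC was 1.76 times mTEC in data set 1 and 0.481 times in data set 2 (−0.21 ± 0.405 over both, adjusted p = 0.75). Without adult mTEC 2 its log2 difference was 0.91 (adjusted p = 0.38). Over the 9 genes, 6 had lower and 2 higher CPM in both cTEC libraries than in both mTEC libraries, where 37.3% and 30.4% of all genes tested did, and the median log2 difference was −0.61 against −0.14 over all genes.

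**Figure D4:**
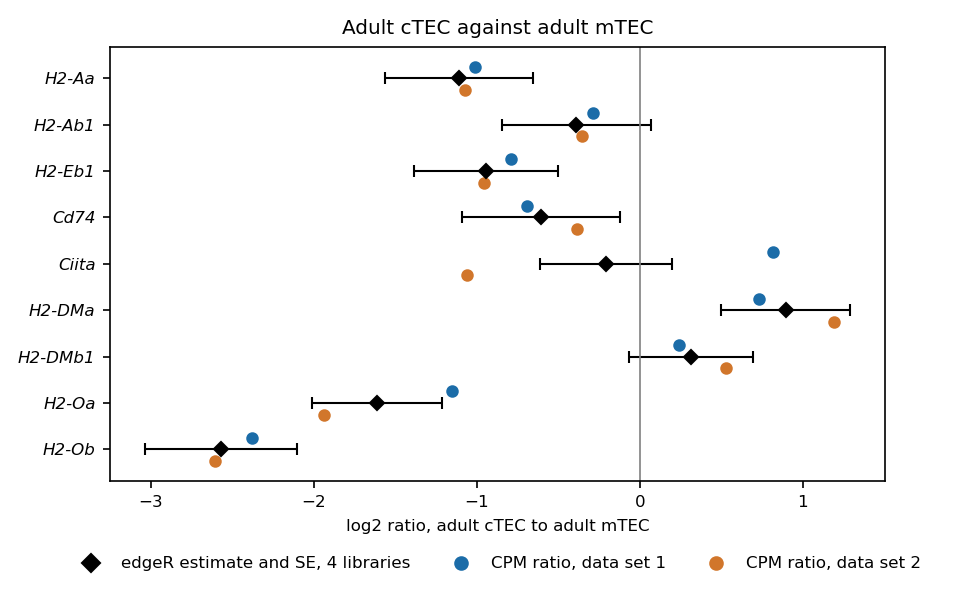
Log2 ratio of adult cTEC to adult mTEC for each gene, with the edgeR estimate over 4 libraries (diamond) and its SE (bar), and the CPM ratio within each data set (points). H2-Oa and H2-Ob lie at −1.61 and −2.57, H2-DMa at 0.90, and the Ciita points fall on opposite sides of 0, at 0.82 and −1.06.

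Marker transcripts of haematopoietic cells, many of which carry class II, were present in the adult libraries despite the CD45- gate. Whether haematopoietic cells or the TEC themselves held these transcripts was not tested. The summed level of 16 myeloid and dendritic markers was 479 and 608 CPM in adult mTEC, 378 and 29.5 CPM in adult cTEC, and 0.51 to 2.12 CPM at the earlier stages, led in the adult by Lyz2 (371 and 443 CPM in mTEC), which had no UMI at E13.5 or E15.5. Of these 16 markers, 15 and 16 had a UMI in mTEC, 12 and 7 in adult cTEC and 5 to 10 earlier. That of 7 B cell markers was 33.1 and 49.6 CPM in mTEC and 2.32 and 5.69 CPM in adult cTEC, and that of 12 thymocyte markers was 37.3 and 37.1 CPM in mTEC and 48.6 and 112 CPM in adult cTEC. Ptprc, which encodes CD45, was at 1.74 and 1.98 CPM in mTEC and 0.463 and 3.71 CPM in adult cTEC. Cells with UMIs of at least 3 such genes numbered 225 and 1909 in mTEC and 4 and 31 in adult cTEC. Within mTEC all 9 members were higher in these cells in both libraries, as were 38.6% of all genes tested, at 1.54 and 1.39 times for H2-Aa, 1.82 and 1.51 times for H2-Oa, and 2.66 and 1.70 times for H2-Ob. These cells were also deeper, with medians of 11844 and 13997 UMIs against 8951 and 9846.5, and the part of depth was not tested. Without them the classical chains took 1.77% and 1.63% of mTEC UMIs against 1.23% and 1.12% in cTEC, the H2-Ob difference was −2.32 (adjusted p = 0.0001) and that of H2-Oa −1.41 (adjusted p = 0.00444). H2-DMa then passed the threshold, at 1.04 (adjusted p = 0.0406). With adult cTEC limited to cells holding Psmb11 or Prss16 (a cortical protease), the differences from mTEC were −2.81 for H2-Ob (adjusted p = 0.000872) and −1.72 for H2-Oa (adjusted p = 0.00539).

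In adult mTEC, all 9 members were higher in cells with a UMI of Aire than in those without, in both libraries, as were 39.4% of all genes tested. These were 817 of 1585 cells in mTEC 1 and 4201 of 5615 in mTEC 2. H2-Ob was at 36.74 CPM in cells with Aire and 8.908 CPM in those without in mTEC 1, and at 37.62 and 19.91 CPM in mTEC 2. H2-Oa was at 413.9 and 129.3 CPM, and at 437.0 and 269.1 CPM. Ciita was at 33.90 and 12.21 CPM, and at 122.1 and 76.99 CPM. The 3 genes with the largest ratios were thus the H2-DO genes and the transactivator, at 1.59 to 4.12 times. H2-Aa was at 1.81 and 1.53 times, Cd74 at 1.78 and 1.56 times, H2-DMa at 1.32 and 1.22 times and H2-DMb1 at 1.23 and 1.11 times. In mTEC 2 Ciita, at 1.59 times, was thus close to Cd74 and H2-Aa. Cells with an Aire UMI were also deeper, with medians of 12402 and 13026 UMIs against 7255.5 and 7213.5, and the part of depth in this split was not tested. The count was 9 of 9 with at least 2 Aire UMIs as well.

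At E13.5, cells holding a UMI of either Psmb11 or Prss16 had more class II transcripts than those without, at nearly equal depth (medians of 7320 and 7019 UMIs). H2-Aa was at 143.1 CPM in 1495 cells with and 38.85 CPM in 257 cells without, H2-Ab1 at 618.9 and 190.6 CPM, Cd74 at 561.2 and 204.2 CPM and H2-DMa at 34.77 and 11.55 CPM. All 73 Ciita UMIs lay in cells with either cortical gene, at 6.131 CPM (95% interval 4.806 to 7.709), where 0 UMIs in the others allow up to 1.937 CPM as the upper bound of the interval. In all, 8 of 9 members were higher in these cells, as were 53.5% of all genes tested, and H2-Ob had no UMI in either. Of the 257 cells without, 94 were of a cluster of 132 cells led by Spink8, Dlk1 and S100g, the lowest in class II. Without this cluster, left out after seeing the data, the count was 8 of 9 as well, with H2-Aa at 147.4 and 60.86 CPM and H2-Ab1 at 635.3 and 267.1 CPM. With at least 2 UMIs of the cortical genes the count was 7 of 9, and H2-Oa was then at 0.564 times. In cells with a cortical gene, H2-Aa at E13.5 was below its level in such cells at E15.5 (1265 CPM). In adult cTEC the same split gave 5 of 9 members higher in both libraries (4 of 9 at 2 UMIs), where 31.8% of all genes tested were. They were H2-Aa (1.22 and 1.18 times), H2-Ab1 (1.18 and 1.03), Cd74 (1.17 and 1.13), H2-DMa (1.45 and 1.33) and Ciita (1.35 and 2.68). Here the cells with a cortical gene were deeper, with medians of 4602.5 and 7673 UMIs against 2924 and 5292. H2-DMb1, H2-Oa and H2-Ob were lower in cells with Psmb11 or Prss16 in both, at 0.910 and 0.856, 0.669 and 0.936, and 0.597 and 0.470 times.

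Cycling cells, those with UMIs of at least 3 proliferation genes, held less class II RNA by CPM. At E13.5 and E15.5 none of the 8 members with a UMI was higher in cycling cells, where 45.9% and 48.2% of all genes tested were, and none of the 9 was at E17.5 (52.2%) or in either adult cTEC library (35.6% and 43.8%), with H2-Aa at 0.595 times and Cd74 at 0.53 times the other cells at E13.5. In NB (H2-Ob) and in both mTEC libraries (Ciita) 1 of 9 was higher, against 50.3% of all genes in NB and 34.6% and 33.3% in mTEC. Cycling cells were the deeper ones in every library, with medians of 7967 against 5334.5 UMIs at E13.5, and the part of depth was not tested. They numbered 1396 of 1752 cells at E13.5, 2259 of 5615 in adult mTEC 2 and 12 of 493 in adult cTEC 1. In those 12 cells Ciita had 3 UMIs, H2-Oa 5 and H2-Ob 0. Cells of 1 library are not replicates, so these splits carry no test.

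**Figure D5:**
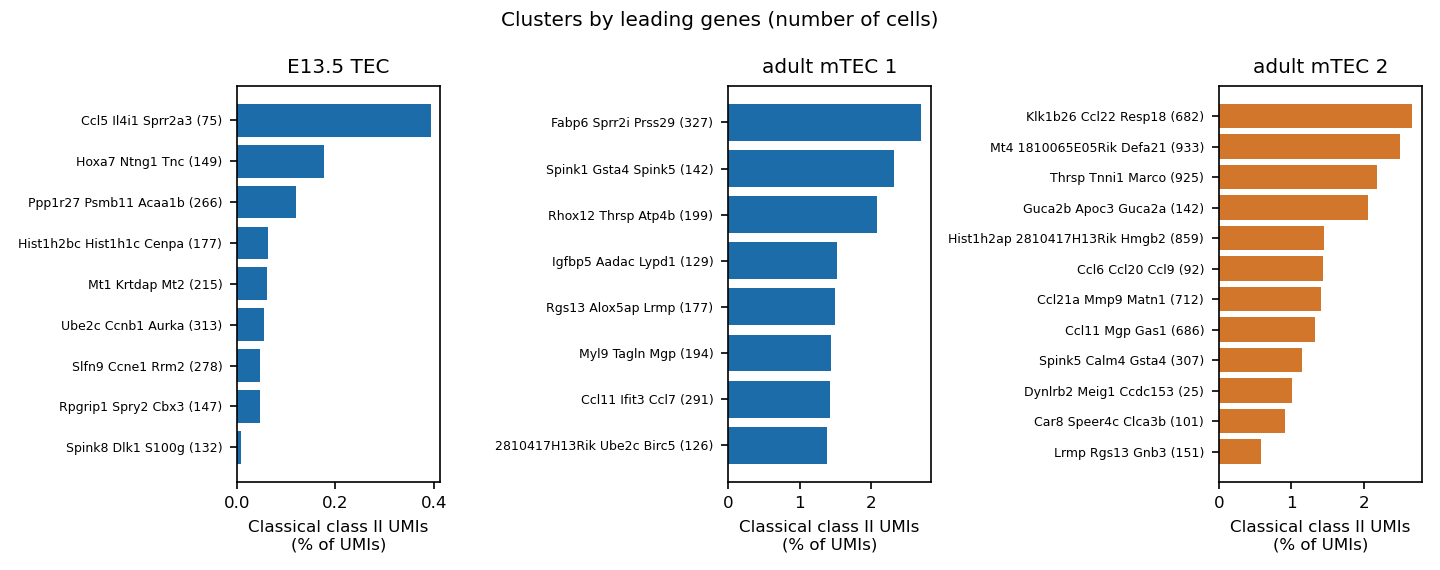
Share of UMIs from H2-Aa, H2-Ab1 and H2-Eb1 (percent) in the clusters of 3 libraries, each named by its 3 leading genes with its number of cells, on an axis of its own for each library. E13.5 clusters ran from 0.00797% to 0.393%, and those of adult mTEC 1 and 2 from 1.38% to 2.70% and from 0.584% to 2.66%.

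Clustering each library without the 9 genes showed where class II transcripts lay. At E13.5 the share of UMIs from the classical chains ran over 49.3-fold, from 0.00797% in 132 cells led by Spink8, Dlk1 and S100g to 0.393% in 75 cells led by Ccl5, Il4i1 and Sprr2a3. The lowest cluster, with Lum and Dcn also among its leading genes, held H2-Ab1 at 73.2 CPM, near the 48.01 CPM of parathyroid-like cells, and the next lowest was at 0.0467%. The highest cluster held H2-Aa at 866 CPM, H2-Ab1 at 1800 CPM, Cd74 at 3270 CPM, Ciita at 22.1 CPM, H2-Oa at 19.5 CPM and Aire at 27.3 CPM, where H2-Oa was at 0.0 to 1.77 CPM in the other clusters, with 4 of 6 mTEC I and 3 of 6 mTEC II markers raised. The 266 cTEC-like cells were at 0.119%. Class II RNA was thus far from evenly held at this stage. Over the clusters of adult cTEC 1 and 2 the range was 2.15-fold and 2.65-fold, and the highest in each, at 1.60% and 1.90%, were 107 cells led by Sprr2b, Ccl21a and Srgn and 28 cells led by Ccl20, Cd52 and Fabp9, with Ccl21a at 20400 and 16300 CPM and Aire at 41.4 and 73.3 CPM. The lowest were those led by Bpifa1, at 0.744% and 0.717%, and the 102 cells of adult cTEC 1 led by C1qa and C1qb were at 1.03%. In adult mTEC 1 the highest cluster was 327 cells led by Fabp6 and Sprr2i, with Aire at 960 CPM, at 2.70%. In adult mTEC 2 it was 682 cells led by Klk1b26 and Ccl22, at 2.66%, with H2-Oa at 777 CPM and H2-Ob at 77.5 CPM. The mTEC I-like clusters, marked by Ccl21a, were at 1.42% and 1.44% in mTEC 1 and at 1.41% and 1.32% in mTEC 2. The lowest cluster of mTEC 2 was mTEC IV-like, tuft cells with all 7 markers raised, at 0.584% of 151 cells' UMIs, with H2-Aa at 2120 CPM and H2-Oa at 133 CPM, where the mTEC IV-like cluster of mTEC 1 was at 1.5% in 177 cells. The mTEC III-like clusters, keratinised cells, were at 2.32% in mTEC 1 and 1.15% in mTEC 2. Clusters of the same name differed in their markers, since the mTEC IV-like cluster of mTEC 1 had 4 of 7 raised and Trpm5 at 12.9 CPM, against 278 CPM in mTEC 2, and Krt10 was at 208 and 834 CPM in the mTEC III-like clusters.

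The other class II genes, H2-Eb2 and H2-DMb2, rose with stage and were lower in cTEC than in mTEC, 2 of 2 in both fits. Of all genes tested, 5.15% were called higher at later stages and 21.2% lower in cTEC. H2-Eb2, a beta chain of the H2-E region, was at 0.2896 CPM at E13.5, 6.267 CPM in NB, 31.04 and 24.50 CPM in adult cTEC and 137.4 and 132.5 CPM in adult mTEC, with a slope of 1.73 ± 0.14 (adjusted p = 0.00389) and a lineage difference of −2.36 ± 0.398 (adjusted p = 1.47e-06). The slope of H2-DMb2 was 1.30 ± 0.204 (adjusted p = 0.0193). Without adult cTEC 1 neither slope passed the edgeR threshold, at 1.59 (adjusted p = 0.0749) for H2-Eb2 and 1.38 (adjusted p = 0.142) for H2-DMb2.

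Of 15 genes of the promoter assembly and of interferon gamma signalling, which induces Ciita, 2 rose with stage and none fell, where 8.22% of all genes were called, with a median slope of 0.07. Irf1, an interferon-induced transcription factor, was at 39.7 CPM at E13.5, 90.3 CPM at E15.5 and 104 CPM at E17.5. It was then at 537 CPM in NB and 716 and 481 CPM in adult cTEC (1.10 ± 0.11, edgeR adjusted p = 0.00639). Socs1, which restrains the signal, was at 9.05 CPM at E13.5, 14.9 CPM at E17.5 and 108 CPM in NB. In adult cTEC Socs1 was at 165 and 166 CPM (1.25 ± 0.143, edgeR adjusted p = 0.00854). For both genes the largest gap between successive stages was from E17.5 to NB. Preparation and data set change at this step as well, and their part was not tested. None of the 7 genes of the proteins that bind the X and Y boxes printed above (Rfx5, Rfxap, Rfxank, Nfya, Nfyb, Nfyc and Creb1) was called for stage. Rfx5 was at 8.04 CPM at E13.5 and 13.4 and 9.41 CPM in adult cTEC (0.05 ± 0.136, adjusted p = 0.835), and Rfxap at 58.0 CPM and then 40.3 and 68.6 CPM. Nfyc was at 54.8 CPM at E13.5 and 22.2 and 22.0 CPM in adult cTEC (−0.30 ± 0.075, adjusted p = 0.0608). Between the lineages, Irf1 was higher in cTEC (1.72 ± 0.405, adjusted p = 0.000476) and Ifngr2, a chain of the interferon gamma receptor, was lower (−1.90 ± 0.395, adjusted p = 7.32e-05). No other gene of this list was called, so that 2 of 15 were, where 32.4% of all genes were called for lineage. Without cells with haematopoietic transcripts Ifngr1, the other receptor chain, was also called lower in cTEC (−1.14, edgeR adjusted p = 0.019).

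Of 9 endosomal proteases and their regulators, 3 rose with stage (Ctss, Cst3 and Ctsd) and none fell, where 8.22% of all genes were called. Without adult cTEC 1 the slopes of these 3 were 1.37, 0.42 and 0.28, and none passed the threshold. Between the adult lineages 3 were higher and 3 lower in cTEC, where 32.4% of all genes were called. Prss16 (5.92 ± 0.517, adjusted p = 1.41e-15) and Ctsl, cathepsin L (3.604 ± 0.508, adjusted p = 1.79e-08), were higher, at 7470 and 9710 CPM for Ctsl in cTEC against 883 and 504 CPM in mTEC. Ctsh (−3.43, adjusted p = 1.04e-09), Ctsz (−3.04, adjusted p = 4.12e-08) and Ctss, cathepsin S, which trims the invariant chain in many antigen-presenting cells (−2.67, adjusted p = 1.08e-06), were lower. Ctss was at 71.3 and 13.6 CPM in adult cTEC and 197 and 190 CPM in mTEC. In these libraries Ctsh was at 65.8, 24.3, 414 and 411 CPM and Ctsz at 83.4, 23.5, 336 and 366 CPM. The myeloid and dendritic markers summed to 378, 29.5, 479 and 608 CPM there and to 1.01 CPM at E13.5. At E13.5 Ctss was at 0.217 CPM, Ctsh at 23.2 CPM and Ctsz at 58.4 CPM. The source of these transcripts was not tested. Without cells with haematopoietic transcripts the lineage differences were −2.91 (Ctss, adjusted p = 4.1e-07), −3.13 (Ctsh, adjusted p = 7.32e-08) and −3.13 (Ctsz, adjusted p = 9.52e-08). Ctsd, the third gene higher in cTEC (0.961, edgeR adjusted p = 0.0415), was then at 0.81 (adjusted p = 0.0946). Cd83, which protects class II from removal at the cell surface, was higher in cTEC, at 146 and 249 CPM against 22.7 and 20.7 CPM (3.07 ± 0.412, adjusted p = 4.24e-09), and it and March8, the other gene of class II turnover tested, did not pass the test for a trend with stage.

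Of 6 costimulatory genes, 5 were lower in cTEC and 1 higher. Cd86, among the lower ones, was at 7.41 and 0.495 CPM in adult cTEC and 8.48 and 13.1 CPM in mTEC. The myeloid and dendritic markers summed to 378, 29.5, 479 and 608 CPM in these libraries, and the source of the Cd86 transcripts was not tested. Without cells with haematopoietic transcripts Cd86 was at −2.02 (adjusted p = 0.0321) and the other 5 genes passed the test in the same direction. Icosl (−5.11, adjusted p = 4.6e-12), Cd80 (−3.79, adjusted p = 6.65e-09) and Cd40 (−2.74, adjusted p = 9.77e-08) were lower, and Cd274, which encodes the inhibitory ligand PD-L1, was higher, at 290 and 152 CPM against 40.4 and 20.6 CPM (2.80, adjusted p = 2.42e-08). Cd274 was also the 1 of 5 tested that rose with stage (0.79 ± 0.089, adjusted p = 0.00808). Of 14 genes of class I presentation, 6 rose with stage and none fell, with a median slope of 0.68. Those with the largest slopes were Psmb8 of the immunoproteasome (1.81 ± 0.159, adjusted p = 0.0046), H2-D1 (1.37, adjusted p = 0.00533), Nlrc5, the transactivator of class I (1.33, adjusted p = 0.0222), and H2-K1 (1.26, adjusted p = 0.00669). H2-K1 was at 50.8 CPM at E13.5, 1020 CPM in NB and 2420 and 1640 CPM in adult cTEC, so that adult cTEC lay above NB, where the classical class II chains lay close to it. Between the lineages Psmb11, Psmb9 and Tap2 were higher and Nlrc5 and Calr lower in cTEC. Over all 6 lists, 14 of 47 genes tested were called for stage (29.8%, against 8.22% of all genes) and 22 of 48 for lineage (45.8%, against 32.4%), and without adult cTEC 1 the count for stage was 1 (Irf1).

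The genes whose level followed most closely the mean of H2-Aa, H2-Ab1, H2-Eb1 and Cd74 over the 8 libraries, among 4556 genes ranked, were Ube2l6 (Pearson r = 0.979), Nfkbib (0.9749), Tapbp (0.972), Vamp8 (0.972) and Mvp (0.972). Ube2l6, the conjugating enzyme of the interferon-induced modifier Isg15, was at 3.77 CPM (E13.5), 26.8 CPM (E15.5), 53.8 CPM (E17.5), 73.5 CPM (NB), 82.0 and 97.3 CPM (adult cTEC), and 93.1 and 83.2 CPM (adult mTEC). Tapbp encodes tapasin of the class I loading complex and Vamp8 an endosomal fusion protein. The 8 libraries share data sets, ages and lineages, so these values describe likeness and carry no test.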

How the data were processed

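The authors sorted TEC, made Chromium 3′ libraries (version 2) and used Cell Ranger to count UMIs for each gene in each cell. Raw counts of this kind, not normalized, are what the deposited matrices hold. The submitters' processing notes name Cell Ranger 2.0.1, STAR 2.5.1b, bcl2fastq 2.17 and mm10, whereas version 3.0.1 stands in the headers of data set 2, whose gene list is longer (31053 genes against 27998). The 27514 genes in both were used, and the part of the differing annotations in differences between data sets was not tested. The labels give no pairing or origin of the adult replicates, which are numbered by data set, so that p-values may measure technical spread.

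The study's limits were applied (cells above 5% mitochondrial UMIs or 5000 genes left out). No doublet caller was run. Each data set was clustered without the 9 genes (2000 variable genes, 20 principal components, 20 neighbours, Leiden method of leidenalg 0.10.2 at resolution 0.8, in Python 3.11.15 with numpy 2.4.6, scikit-learn 1.9.0 and igraph 0.11.9). A cluster was named when at least 3 markers of a list and over 50% of them were 4-fold above the other cells (2-fold for subsets, clustered within a library) with a pseudocount of 10 CPM. UMI counts of epithelial-like cells were summed by library and fitted with edgeR 4.0.16 (R 4.3.3): TMM scaling, filterByExpr, the quasi-likelihood test, Benjamini-Hochberg adjustment over all genes tested, threshold 0.05. The slope used stage ranks 1 to 5. SEs are the estimate over the root of F. DESeq2 1.42.0 was the alternative test. Both fits were checked on simulated data. Intervals are exact Poisson (CPM) or exact binomial (shares) at 95% and cover counting error only, and the limit of 0 is 3 UMIs.

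The members, gene lists and tests were chosen with earlier results of these data known. Of each pathway list, up to 4 genes with the largest change among those past the threshold were named, and Psmb11, Prss16 and Aire wherever listed. The 7 genes of the X and Y box proteins, March8, Ctsd, Cd86 and Calr, and Ctss between the lineages, were named beyond this rule after their values were seen. Likeness was taken on log2(CPM + 10) among genes of mean CPM of at least 30. Promoter sequences come from RefSeq, and the members without an entry there are not shown.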

Additional observations from a re-analysis of the deposited data

Results flagged for a closer look

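Ciita was the 1 member whose difference between the adult lineages pointed in opposite directions in the 2 data sets. The log2 ratio of adult cTEC to adult mTEC was 0.82 in data set 1 (45.87 against 25.99 CPM) and −1.06 in data set 2 (55.20 against 114.7 CPM). Each data set holds 1 library per lineage, so the difference between the data sets was not tested. The counting intervals of the cTEC libraries overlapped (37.28 to 55.84 and 48.19 to 62.94 CPM), whereas those of mTEC were far apart (23.60 to 28.56 and 112.2 to 117.3 CPM). The share of thinned mTEC cells with a Ciita UMI was 4.67% and 19.4%. The gap was present in cells with an Aire UMI (33.90 and 122.1 CPM) and in those without (12.21 and 76.99 CPM). The ratio of the higher to the lower mTEC library was 4.41 for Ciita and at most 1.32 for the other 8 members. The gene annotations of the data sets differ, and their part in this result was not tested.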

How the results depend on the processing

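Over the alternatives run, 114 of 126 slopes and 107 of 117 lineage differences of the members kept direction and side of the threshold, and 1 reversed: Ciita without adult mTEC 2, at 0.908. For stage, the count of members called was 9 by DESeq2, 2 with no term for the data set, 3 without E13.5 and 0 to 1 without either adult cTEC library, against 1; pathway genes went from 14 to 1 to 11 without either adult cTEC library; and all genes went from 1175 to 2785 by DESeq2, 538 in data set 1 and 24 to 508 without either adult cTEC library. For lineage, 2 members became 4 by DESeq2 and 1 to 3 without 1 library, 22 pathway genes became 12 to 17, and 5063 genes became 2609 by DESeq2 and 1528, 2417, 2673 and 2874 without 1 library. Lineage fits without 1 library had no data-set term, since no residual degree of freedom was left, and assume that the lone library varies like the others; the cause of these changes beyond fewer samples was not tested. The classical share of UMIs was 0.0776% at E13.5 with all cells, and 1.77% and 1.63% in mTEC without cells with haematopoietic transcripts. Cells with a classical UMI were 41.44% at E13.5 and 91.1% at E15.5 at 1000 UMIs, 85.45% and 99.66% unthinned, and 33.98% and 91.93% with at least 2 UMIs, which shows the part of depth. At 5% of the adult level, 4 members had their onset at E15.5. Leaving out the haemoglobin-rich cluster of E17.5, or adult cTEC cells without Psmb11 or Prss16 for the slope (both chosen after seeing the data), changed no call of a member. The data set, which holds 1 library of each adult group, was the pairing in the lineage fit; with no term for it 2 members were called as well.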

Other observations

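Cells left out as thymocyte-like in NB cTEC (169 cells) held the members at levels close to those of the epithelial-like cells of the same library, with H2-Aa at 3891 CPM against 3907, H2-Ab1 at 6018 against 6393 and Cd74 at 8206 against 8899. For a cluster with T cell transcripts in newborn and adult cTEC, the authors propose thymic nurse cells, which are cTEC that enclose thymocytes. Whether the 169 cells are of this kind was not tested. A cluster of 2077 cells at E17.5 with many haemoglobin transcripts, kept among the epithelial-like cells, held H2-Aa at 1614 CPM against 2574 in the other cells, H2-Ab1 at 2840 against 3787, and H2-Oa at 39.0 against 109.9. All 9 members were lower in it.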
